A study of Homo sapiens with 18 samples.

Results

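The heat shock proteins, their J-domain partners, the BAG proteins and the heat shock factors HSF1 and HSF2 make up much of the protein-folding machinery of the human cell. They were taken by gene symbol, as the HSPA, HSPB, HSPH1, HSP90 and HSPD1/HSPE1 genes, the DNAJA, DNAJB and DNAJC genes, BAG1 to BAG6, HSF1 and HSF2, with HSPB9 left out. This gave 79 rows with 78 symbols among the 63241 genes of the count table. They comprised 15 HSPA, 1 HSPH, 3 HSP90, 2 mitochondrial chaperonin, 6 HSPB, 4 DNAJA, 14 DNAJB, 26 DNAJC, 6 BAG and 2 HSF rows. The rule itself uses only symbols, but it was chosen with earlier results of these data known.

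Polyadenylated transcripts of 2 human prostate cancer lines were sequenced in 18 libraries, 3 for each of 6 groups. LNCaP, derived from a lymph node metastasis and responsive to androgen, received genistein at 10 µM, genistein at 20 µM, baicalein at 10 µM or baicalein at 20 µM for 24 h, or was untreated. PC-3, derived from a bone metastasis and growing without androgen, was untreated. Genistein and baicalein are plant flavonoids, and the study's title names them as radiosensitizers. All cells were labelled wild type and grew in the same serum-containing medium. The sample labels call the controls untreated, while the treatment protocol describes a vehicle of DMSO. Separate cultures are not stated, so a p-value here reflects only how far libraries differ, and that may be technical. Both lines are established from 1 patient each, so a difference between them is a difference between 2 lines.

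A cell under heat or chemical stress accumulates unfolded proteins, which draw HSP70 and HSP90 away from the factor HSF1 that these chaperones hold inactive. Free HSF1 forms trimers, binds repeats of the pentamer nGAAn called heat shock elements, and raises transcription of the inducible chaperones, HSPA6 and HSPA1B, DNAJB1 and BAG3 among them. HSP70 proteins bind exposed hydrophobic stretches in a cycle of ATP hydrolysis that J-domain proteins start and that exchange factors, the HSP110 and BAG proteins, bring to an end. HSP90 completes the folding of kinases and steroid receptors, and in prostate cells it holds the androgen receptor ready for hormone.

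Total counts per library ran from 10013567 to 18445711. LNCaP libraries carried KLK3, KLK2 and FOLH1, and PC-3 libraries carried VIM, CAV1 and CD44, as these lines are known to do. TMPRSS2 separated the lines less, averaging 64.0 CPM in PC-3 and 315 CPM in untreated LNCaP. It averaged 44.9 CPM in LNCaP with baicalein at 20 µM. KLK3 averaged 1.6 CPM in PC-3 and 1456 CPM in LNCaP, and VIM averaged 1758 CPM in PC-3 and 6.0 CPM in LNCaP. In LNCaP itself KLK3 averaged 178 CPM with baicalein at 20 µM, against 1497 CPM untreated. The leukocyte marker PTPRC had at most 0.543 CPM in any library, the fibroblast marker COL1A1 lay between 6.83 and 16.7 CPM, and the endothelial marker PECAM1 averaged 4.08 CPM in PC-3. CPM gives a gene's count relative to its library's total, scaled by the trimmed mean of M-values (TMM). Mitochondrially encoded genes took 12.5% ± 1.97 of the counts (SD, n = 3) with baicalein at 20 µM, against 5.09% ± 0.381 in untreated LNCaP, and between 4.55% and 6.05% on average in the other groups. In bulk RNA, a smaller share of cells with a transcript and less transcript per cell cannot be told apart.

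Baicalein at 20 µM raised the inducible HSP70s, their J-domain partner DNAJB1, BAG3 and the small heat shock proteins in LNCaP cells, and lowered the constitutive HSPA8. Of the 67 genes with enough counts to be tested, 32 were higher and 8 lower than in untreated LNCaP, called at an adjusted p under 0.05 in edgeR's quasi-likelihood test. Over all 16985 genes tested, 29.4% were called higher and 27.8% lower, 57.2% in all. The share of chaperone genes called higher was 47.8%, and the share called lower 11.9%. The pseudogene HSPA7, counted as higher, passed the count filter through these treated libraries alone. The median log2 fold change was 0.42 in the chaperone genes, beside 0.04 over all genes tested. With the mitochondrially encoded genes taken out before scaling, the counts were 32 higher and 10 lower.

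The summed level of all chaperone genes was 14976, 13928 and 13891 CPM in the 3 libraries with baicalein at 20 µM, against 10511, 11317 and 10540.3 CPM in untreated LNCaP. The means were 14265 ± 616 CPM with baicalein at 20 µM and 10789 ± 457 CPM untreated (SD, n = 3 each). The 2 groups did not overlap on this scale. It rests on TMM scaling, whose factors were 0.811 to 0.925 with the drug and 1.05 to 1.09 untreated. As a share of raw counts, the chaperone genes took 1.21%, 1.29% and 1.23% with baicalein at 20 µM, against 1.10%, 1.24% and 1.13% untreated, and these shares overlap. Sums in the other treated groups were 11791 ± 366 CPM with genistein at 10 µM, 12049 ± 407 with genistein at 20 µM and 12141 ± 299 with baicalein at 10 µM. The summed level is a description and was not tested.

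HSPA6, an HSP70 that is nearly silent in unstressed cells and lies on chromosome 1, had 284, 404 and 331 CPM in the libraries with baicalein at 20 µM, against 2.18, 2.63 and 2.76 CPM in untreated libraries. Every treated library was far above every untreated one. The fitted log2 fold change was 7.07 ± 0.22 (SE), a 135-fold higher level (adjusted p = 1.53e-10, edgeR). HSPA7, a nearly identical pseudogene copy of HSPA6, had 63, 63 and 60 raw counts with baicalein at 20 µM, against 1, 2 and 0 in untreated cells. How reads were divided between the pair is uncertain, so their summed level was also taken. It was 346 ± 59.8 CPM with baicalein at 20 µM and 2.58 ± 0.301 CPM in untreated cells.

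HSPA1B, which with its neighbour HSPA1A on chromosome 6 encodes the major stress-inducible HSP70, had 542, 691 and 581 CPM with baicalein at 20 µM, against 89.1, 91.6 and 92.6 CPM untreated. It rose 6.64-fold, a log2 fold change of 2.73 ± 0.12 (adjusted p = 3.67e-09, edgeR), with no overlap between the groups. HSPA1A was listed far lower, at 3.09, 4.68 and 3.8 CPM with the drug, against 0.467, 0.734 and 0.862 CPM untreated, and was called higher with a log2 fold change of 2.48 ± 0.30 (adjusted p = 1.38e-05, edgeR). The 2 genes are near-identical copies, and how their reads were split is uncertain. In GENCODE 29, 920 of the 2521 exonic bases of HSPA1B also belong to the transcript AL671762.1 on the same strand. HSPA1A and HSPA1B summed to 609 ± 78 CPM with baicalein at 20 µM and 91.8 ± 1.98 CPM untreated. HSPA1L, the testis-enriched gene beside them, was called higher by 0.84 ± 0.18 on the log2 scale.

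HSPA8, the constitutive HSC70 that untreated cells use for everyday folding, fell. It had 758, 897 and 749 CPM with baicalein at 20 µM, against 1344, 1554 and 1454 CPM in untreated LNCaP. No treated library reached the lowest untreated one. The log2 fold change was -0.86 ± 0.11, a level 1.81-fold lower (adjusted p = 1.74e-05, edgeR). Added together, HSPA1A, HSPA1B, HSPA2, HSPA6 and HSPA8 came to 1751 ± 217 CPM with baicalein at 20 µM and 1546 ± 107 CPM untreated. The libraries of the 2 groups overlapped in that sum, while its make-up differed.

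The stretches just upstream of these 3 HSP70 genes are shown because HSPA6 and HSPA1B rose and HSPA8 fell, and heat shock elements are looked for there. They are the 250 bases before each transcription start in RefSeq on GRCh38.p14, read 5′ to 3′ on the gene's strand. Capitals mark a full match to 3 alternating pentamer cores, GAA, TTC and GAA with any 2 bases between neighbours, searched on both strands without mismatch. HSPA6 lies at chr1:161524290-161524539 on the plus strand, HSPA1B at chr6:31827488-31827737 on the plus strand and HSPA8 at chr11:123062137-123062386 on the minus strand.
HSPA6: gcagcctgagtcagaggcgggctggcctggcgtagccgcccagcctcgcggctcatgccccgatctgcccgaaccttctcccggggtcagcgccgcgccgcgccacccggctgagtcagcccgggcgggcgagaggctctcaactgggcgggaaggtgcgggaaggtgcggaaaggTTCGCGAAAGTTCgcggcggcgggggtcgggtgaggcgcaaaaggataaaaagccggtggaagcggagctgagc
HSPA1B: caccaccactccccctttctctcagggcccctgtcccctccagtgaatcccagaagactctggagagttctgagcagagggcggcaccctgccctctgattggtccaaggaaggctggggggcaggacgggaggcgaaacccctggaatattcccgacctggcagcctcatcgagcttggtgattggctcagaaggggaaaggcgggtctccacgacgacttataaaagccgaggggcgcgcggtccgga
HSPA8: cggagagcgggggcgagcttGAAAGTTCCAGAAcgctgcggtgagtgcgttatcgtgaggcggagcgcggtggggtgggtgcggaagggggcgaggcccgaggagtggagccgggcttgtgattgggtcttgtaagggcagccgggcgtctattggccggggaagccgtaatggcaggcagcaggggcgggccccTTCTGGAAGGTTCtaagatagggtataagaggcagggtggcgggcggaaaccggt

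HSPA6 held 1 match, at -74 to -62 from the start. HSPA8 held 2, at -230 to -218 and -55 to -43, and HSPA1B held 0. Among all 35116 RefSeq promoter windows of 250 bases before and 50 after a start, 172 held the motif, or 0.490%. Of the 68 chaperone symbols with a window, 7 held it in at least 1 window, namely DNAJA1, DNAJB6, HSP90AA1, HSP90AB1, HSPA6, HSPA8 and HSPD1. Some symbols have several windows, so this count per symbol and the share per window are in unlike units. In HSPD1 2 matches overlapped each other. By response to baicalein at 20 µM, 3 of 28 genes called higher, 2 of 7 called lower and 2 of 25 not called held a match. A match describes the letters in the window and is not a site shown to be bound, and genes without one may hold shorter or mismatched elements.

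Per kilobase of exon, which allows genes to be set beside each other, HSPA8 averaged 165 CPM per kb with baicalein at 20 µM, against 299 in untreated cells. HSPA1B averaged 239.9 CPM per kb with the drug and 36.1 without it. HSPA6 averaged 143 CPM per kb with the drug and 1.06 without it. In the order of levels per kb, HSPA1B stood at place 3 with baicalein at 20 µM and place 15 untreated. HSPA6 stood at place 10 with the drug, against place 63 untreated, and HSPA8 at place 9, against place 3. HSP90AB1 held place 1 in all 5 LNCaP groups.

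**Figure D1:**
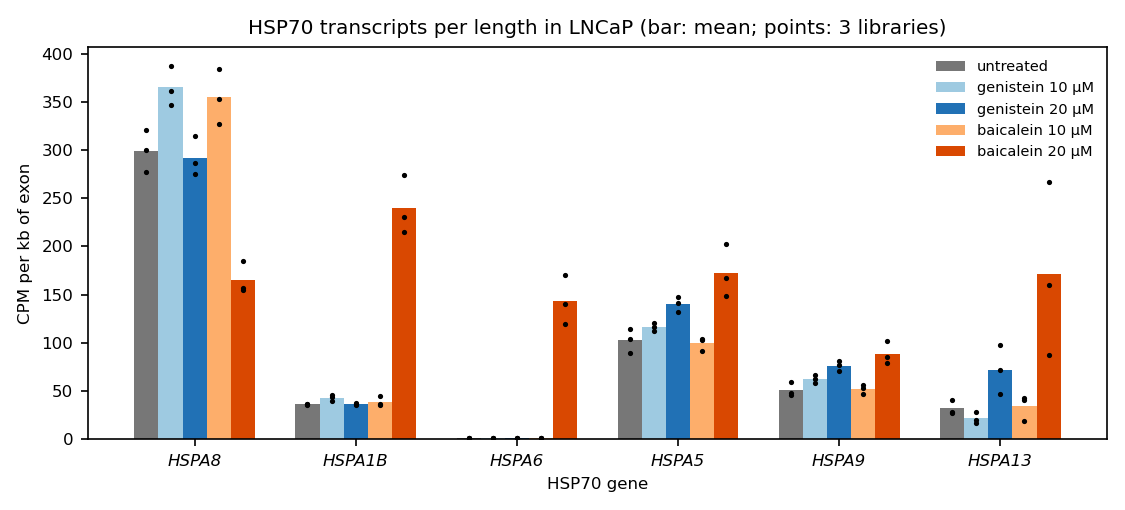
Levels of 6 HSP70 genes in CPM per kilobase of exon (vertical axis) in the 5 LNCaP groups, with bars for means and points for the 3 libraries. HSPA8 averaged 165 with baicalein at 20 µM and 299 untreated, while HSPA1B averaged 239.9 with baicalein at 20 µM and 36.1 untreated.

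**Figure D2:**
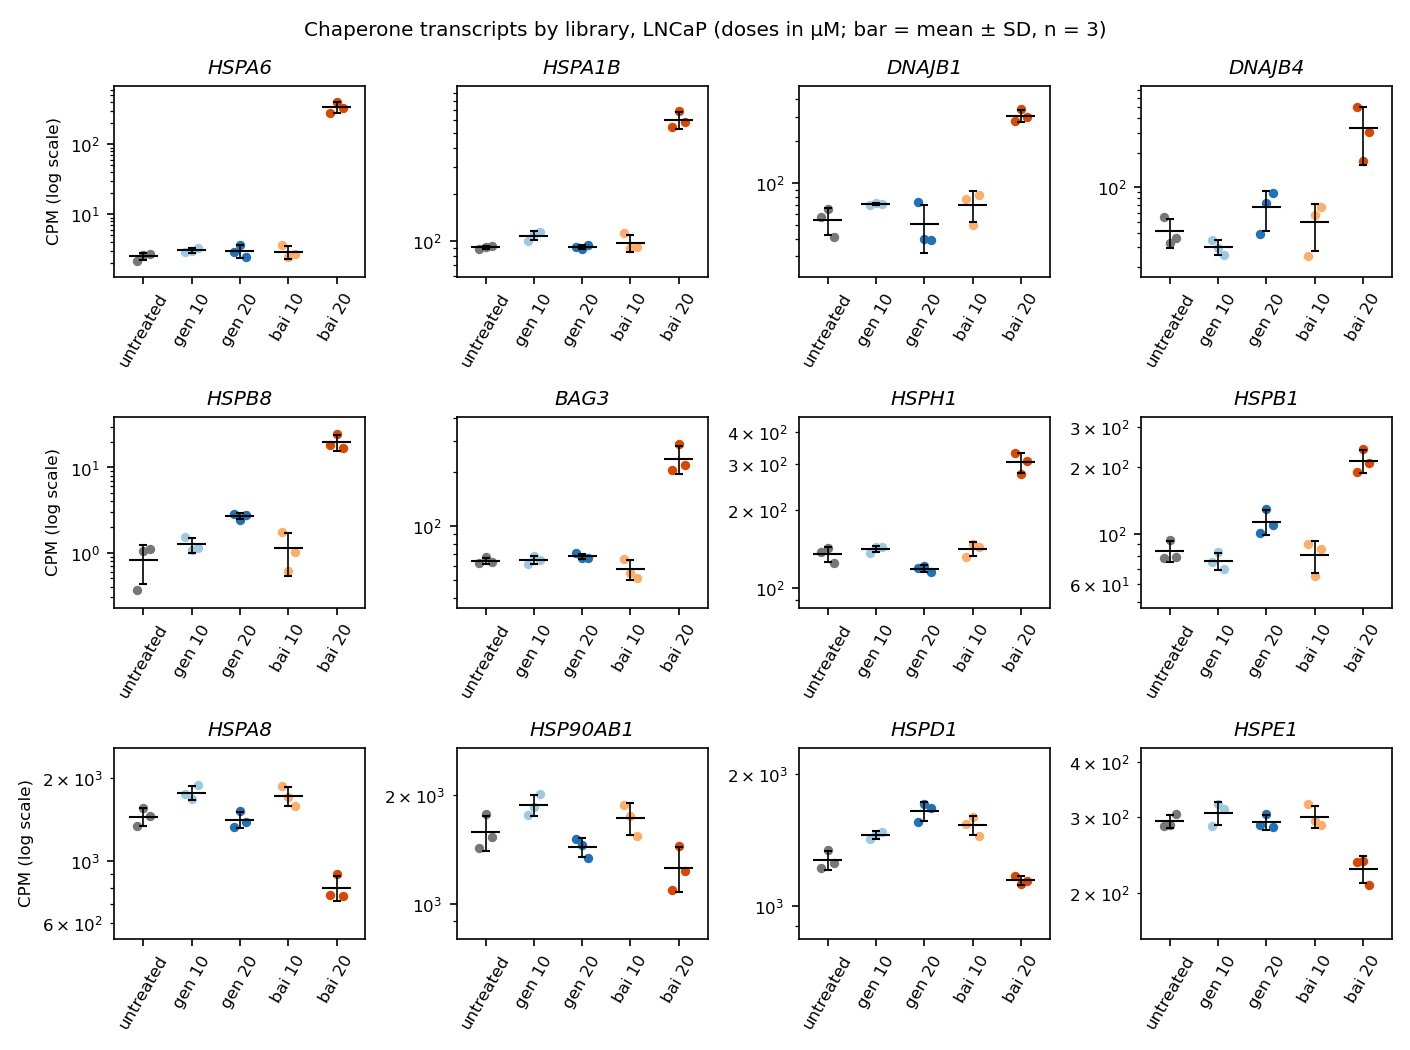
Level in CPM (log axis) of 12 chaperone genes in each LNCaP library, with a bar and whisker for the mean ± SD of 3. HSPA6, HSPA1B, DNAJB1, DNAJB4, HSPB8, BAG3, HSPH1 and HSPB1 lie higher in all 3 libraries with baicalein at 20 µM than in any untreated library, and HSPA8, HSPD1 and HSPE1 lie lower in all 3.

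J-domain proteins hand substrates to HSP70 and trigger its ATP hydrolysis. Among the DNAJB genes, the class without the zinc-binding stretch of DNAJA proteins, 6 of 9 tested were higher with baicalein at 20 µM and 0 were lower. Over all genes the shares were 29.4% and 27.8%. DNAJB1, the HSP40 that partners HSP70 in disaggregation and returns HSF1 to its inactive state, had 281, 339 and 296 CPM with the drug, against 57.2, 65.7 and 41.4 CPM untreated. The groups were far apart, with a log2 fold change of 2.48 ± 0.26 (adjusted p = 4.76e-06, edgeR). DNAJB4, a cytosolic relative of DNAJB1, had 506, 169 and 306 CPM with baicalein at 20 µM, against 54.6, 32.3 and 36.3 CPM untreated, a log2 fold change of 2.99 ± 0.46 (adjusted p = 0.000119). All 3 treated libraries were higher, but they differed among themselves by more than those of DNAJB1 did.

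DNAJB9, the ER-resident ERdj4 that serves the folding sensor HSPA5, had 900.2, 334 and 638 CPM with baicalein at 20 µM, against 134, 87.2 and 102 CPM untreated. Its log2 fold change was 2.53 ± 0.42 (adjusted p = 0.000234, edgeR). HSPA13, a microsome-associated HSP70 relative, had 1118, 368 and 670.3 CPM with the drug, against 171, 114 and 118 CPM untreated, a log2 fold change of 2.42 ± 0.44 (adjusted p = 0.000418). For both, the drug's lowest library was above the highest untreated one. The 2 genes and DNAJB4 share an order of libraries with baicalein at 20 µM, replicate 1 highest and replicate 2 lowest.

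That order went with base composition. The 33 tested chaperone genes with transcript GC under 45.2% deviated from their group mean by a median of 0.28 on the log2 scale in replicate 1 of baicalein at 20 µM and by -0.27 in replicate 2. The other 34 deviated by -0.16 and 0.24 in the same libraries. With trends in GC content and length taken out of each library, the log2 fold changes with baicalein at 20 µM were 2.64 ± 0.12 for DNAJB4, 2.26 ± 0.29 for DNAJB9 and 2.08 ± 0.14 for HSPA13, with all 3 still called. The source of the library differences was not tested.

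Exchange factors open HSP70 to release its client. HSPH1, the HSP110 that also takes part in disaggregation, had 331, 276 and 308 CPM with baicalein at 20 µM, against 138, 143 and 126 CPM untreated, a log2 fold change of 1.17 ± 0.10 (adjusted p = 6.07e-07, edgeR). Its relative HSPA4L averaged 61.8 ± 23.9 CPM with the drug and 24.8 ± 4.72 CPM untreated and was called higher, with a log2 fold change of 1.32 ± 0.33. Of the 6 BAG genes, 2 were higher and 0 lower, BAG3 and BAG5 being the 2, a share near the 29.4% of all genes called higher. BAG3, which routes HSP70 clients to selective autophagy together with HSPB8, had 207, 286 and 219.7 CPM with the drug, against 62.2, 67.2 and 63 CPM untreated. Its treated libraries all lay above every untreated one, and its log2 fold change was 1.89 ± 0.13 (adjusted p = 1.37e-07).

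Small heat shock proteins hold unfolding clients in a state from which HSP70 can recover them. Only HSPB1 and HSPB8 of the 6 had enough counts to test, and both rose with baicalein at 20 µM. HSPB8, the partner of BAG3, had 18.4, 24.4 and 16.8 CPM with the drug, against 0.363, 1.04 and 1.09 CPM untreated, a log2 fold change of 4.58 ± 0.37 (adjusted p = 3.96e-07, edgeR). The lowest treated library was well above the highest untreated one. HSPB1, or HSP27, had 189, 239.9 and 207 CPM with the drug, against 78.6, 94.3 and 79.2 CPM untreated, a log2 fold change of 1.34 ± 0.15 (adjusted p = 7.73e-06).

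The HSP90 genes showed little of this. HSP90AA1, the stress-inducible cytosolic HSP90, had 958, 835 and 921 CPM with baicalein at 20 µM, against 777, 849 and 769.7 CPM untreated, and was not called (log2 fold change 0.18, 95% interval -0.12 to 0.48). HSP90B1, the ER form, was not called either (0.15, interval -0.06 to 0.36). HSP90AB1, the constitutive form and the highest chaperone transcript per length, had 1093, 1449.9 and 1233 CPM with the drug, against 1431, 1772 and 1536 CPM untreated, with overlapping libraries. It was called lower, with a log2 fold change of -0.33 ± 0.12 (adjusted p = 0.0374, edgeR). That call was lost when the fit held only the compared groups (adjusted p = 0.131), without untreated replicate 2 (0.138) or 3 (0.0578), and without treated replicate 1 (0.127) or 3 (0.0906).

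Grouped by place in the cell, chaperones gave these counts with baicalein at 20 µM, beside 29.4% higher and 27.8% lower over all genes. Of the 14 cytosolic and mitochondrial genes listed as heat-inducible, 9 were higher and 3 lower, with a median log2 fold change of 1.25. The 3 lower were HSPA8, HSPE1 and HSP90AB1. HSPA8 and HSP90AB1 are the constitutive forms described above, so the list is not of inducible genes only. Of the 11 chaperones of the ER, 5 were higher and 0 lower (median 0.41). HSPA5, or BiP, the central ER HSP70, had 579, 791 and 654 CPM with the drug, against 350.3, 445 and 405 CPM untreated, a log2 fold change of 0.76 ± 0.13 (adjusted p = 0.000224, edgeR). DNAJC3, the ER co-chaperone p58IPK, was not called (log2 fold change 0.27, interval -0.25 to 0.78).

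Of the 8 mitochondrial chaperones, 2 were higher and 2 lower (median -0.01), near the 29.4% and 27.8% of all genes. HSPA9, or mortalin, the HSP70 that pulls proteins into the matrix, had 649.9, 840.0 and 701 CPM with baicalein at 20 µM, against 396, 488 and 379 CPM untreated, and was called higher, with a log2 fold change of 0.79 ± 0.13 (adjusted p = 0.000189, edgeR). HSPE1, the lid of the matrix chaperonin, had 237, 237 and 209 CPM with the drug, against 286, 287 and 305 CPM untreated, and was called lower, with a log2 fold change of -0.36 ± 0.09 (adjusted p = 0.00505). When the fit held only the compared groups, HSPE1 was no longer called (adjusted p = 0.069). In GENCODE 29, 281 of its 1977 exonic bases overlap HSPD1 on the opposite strand, and 192 overlap HSPE1-MOB4 on the same strand. Reads from these stretches cannot be told apart in libraries that do not mark the strand. HSPD1, the chaperonin barrel, was not called (log2 fold change -0.15, interval -0.33 to 0.02), though it was called lower by DESeq2 (adjusted p = 0.00158), with GC and length trends removed (0.0368, and 0.0461 with a replicate block added) and without the mitochondrially encoded genes (0.0421). Without the mitochondrially encoded genes, whose share was higher in the same libraries, the log2 fold changes were 0.73 for HSPA9, -0.42 for HSPE1 and -0.21 for HSPD1, all called.

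HSF1, the master factor of the heat shock response, averaged 56.7 ± 9.74 CPM with baicalein at 20 µM and 35.3 ± 5.74 CPM untreated, a log2 fold change of 0.69 ± 0.22 (adjusted p = 0.0155, edgeR). The call was lost without untreated replicate 2 (adjusted p = 0.0661), untreated replicate 3 (0.0682) or treated replicate 2 (0.059). HSF2, a factor that forms mixed trimers with HSF1, averaged 28.6 ± 5.58 CPM with the drug and 21.4 ± 1.23 CPM untreated and was not called (log2 fold change 0.42, adjusted p = 0.106), but it was called without treated replicate 2 (adjusted p = 0.0368). HSF1 is controlled largely as a protein, so its transcript level does not measure its activity.

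The DNAJC genes, a varied class with J domains in otherwise unrelated proteins, had a share of higher calls near that of all genes. With baicalein at 20 µM, 8 of 26 were higher and 4 lower, beside 29.4% and 27.8% of all genes. DNAJC12, which helps fold the aromatic amino acid hydroxylases, had 61.1, 41.4 and 44.2 CPM with the drug, against 17.4, 15.2 and 14.2 CPM untreated, a log2 fold change of 1.65 ± 0.15 (adjusted p = 9.65e-07, edgeR). DNAJC16 averaged 5.89 ± 3.55 CPM with the drug and 26.7 ± 13.5 CPM untreated (log2 fold change -2.18), and DNAJC14 averaged 22.7 ± 4.5 CPM with the drug and 73.7 ± 9.44 CPM untreated (-1.70). DNAJC22 averaged 2.2 ± 0.522 CPM with the drug and 7.14 ± 1.24 CPM untreated (-1.68), and DNAJC11, of the inner membrane organizing system of mitochondria, 54.2 ± 10.3 CPM with the drug and 78.6 ± 4.08 CPM untreated (-0.54). All 4 were called lower, and none of their libraries overlapped between the groups.

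HSPA12A, a distant HSP70 relative, was also lower, at 8.21, 9.85 and 10.2 CPM with baicalein at 20 µM, against 24.7, 36 and 31 CPM untreated (log2 fold change -1.69 ± 0.17, adjusted p = 2.54e-06, edgeR). Exons of DNAJC14, DNAJC11 and HSPA12A overlap genes on the opposite strand in GENCODE 29, as do those of 28 chaperone genes in all by more than 100 bases. The library kit does not mark the strand, so reads of such pairs cannot be told apart where they overlap. The DNAJA genes, the class closest to the bacterial DnaJ, were higher in 2 of 3, beside 29.4% of all genes. DNAJA1, a general partner of HSC70, had 464, 509 and 489.8 CPM with the drug, against 313, 361 and 305 CPM untreated (log2 fold change 0.58 ± 0.10, adjusted p = 0.000189). The higher genes not described so far, DNAJA2, BAG5 and HSPA14, DNAJB2, DNAJB6 and DNAJB11, and DNAJC1, DNAJC2, DNAJC7, DNAJC8, DNAJC21, DNAJC27 and DNAJC30, had log2 fold changes between 0.41 and 1.68, and DNAJB2 alone of these had overlapping libraries.

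Genes that work with these chaperones were counted in the same way with baicalein at 20 µM. Over all genes, 29.4% were called higher and 27.8% lower. Of the 8 subunits of TRiC, the cytosolic chaperonin that folds actin and tubulin, 0 were higher and 6 lower (median log2 fold change -0.48). CCT3 averaged 251 ± 25.3 CPM with the drug and 455 ± 33.7 CPM untreated, CCT6A 192 ± 15.7 CPM with the drug and 339 ± 35.4 CPM untreated, and CCT5 217 ± 6.11 CPM with the drug and 328 ± 12.2 CPM untreated. Their log2 fold changes were -0.86, -0.82 and -0.59. Of the 13 HSP90 co-chaperones, 3 were higher and 4 lower, near the shares of all genes. FKBP5, a steroid receptor immunophilin that is itself an androgen target, averaged 28.6 ± 3.56 CPM with baicalein at 20 µM and 116 ± 1.09 CPM untreated, a log2 fold change of -2.03 ± 0.11 (adjusted p = 1.23e-08, edgeR).

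Of 11 other tested genes listed for HSF1 control or chaperone function, 5 were higher and 3 lower, beside 29.4% and 27.8% of all genes. CRYAB, a small heat shock protein of lens and muscle, averaged 16 ± 2.6 CPM with baicalein at 20 µM and 0.988 ± 0.14 CPM untreated (log2 fold change 4.01 ± 0.21, adjusted p = 1.31e-08, edgeR). HSPBAP1, named for binding HSPB1, averaged 78.6 ± 2.83 CPM with the drug and 18 ± 0.77 CPM untreated (2.13 ± 0.09). CLPB, the mitochondrial disaggregase, averaged 27.7 ± 2.51 CPM with the drug and 71.1 ± 2.25 CPM untreated (-1.36 ± 0.09). These lists were drawn up with earlier results of the data known and are descriptions.

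At 10 µM neither drug gave a called chaperone gene in edgeR's test. For baicalein at 10 µM against untreated LNCaP, 0 of 67 were higher and 0 lower, beside 0.0883% and 0.312% of all genes. The unadjusted p was under 0.05 for 8 of the 67, and DESeq2 called 2 higher, HSPD1 among them (adjusted p = 0.0171), and 0 lower. With GC and length trends removed, 2 were called higher, HSPA4L (0.57 ± 0.12, adjusted p = 0.0353) and DNAJC10 (0.46 ± 0.06, adjusted p = 0.00225), the second named after its value was seen. For genistein at 10 µM, 0 were higher and 0 lower, beside 0.0353% and 0.0765% of all genes, with 5 unadjusted p under 0.05 and 0 calls by DESeq2. The 95% interval of the fold change lay within 2-fold either way for 57 of the 67 genes with baicalein and 54 with genistein.

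HSPA6 had 3.63, 2.43 and 2.75 CPM with baicalein at 10 µM and 2.91, 2.98 and 3.36 CPM with genistein at 10 µM, against 2.18, 2.63 and 2.76 CPM untreated. HSPA1B had 112, 89.8 and 91.5 CPM with baicalein and 100.2, 111 and 115 CPM with genistein, against 89.1, 91.6 and 92.6 CPM untreated. BAG3 averaged 57.4 ± 7.6 CPM with baicalein at 10 µM and 64.7 ± 3.39 with genistein at 10 µM, against 64.2 ± 2.7 CPM untreated. The 95% interval of the log2 fold change with baicalein at 10 µM was -0.22 to 0.66 for HSPA6 and -0.15 to 0.36 for HSPA1B, and the libraries overlapped with untreated ones for both. With genistein at 10 µM all 3 libraries lay just above the untreated ones for both genes, with log2 fold changes of 0.29 ± 0.20 and 0.25 ± 0.12 (adjusted p = 0.674 and 0.587, edgeR). HSPA8 averaged 1719.6 ± 139 CPM with baicalein at 10 µM and 1769 ± 101 with genistein at 10 µM, against 1451 ± 105 CPM untreated, and was not called (adjusted p = 0.407 and 0.486, edgeR). Of the 13 HSP90 co-chaperones, 1 was lower at 10 µM with each drug, FKBP5, which averaged 74.5 ± 0.911 CPM with genistein and 77.9 ± 6.6 CPM with baicalein, against 116 ± 1.09 CPM untreated (log2 fold changes -0.64 and -0.58, adjusted p = 0.0291 and 0.0298, edgeR).

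Between 10 and 20 µM of baicalein, 30 of 67 chaperone genes were higher at 20 µM and 13 lower, beside 26.8% and 27.5% (together 54.4%) of all genes. The 30 include HSPA7, which passed the count filter through baicalein at 20 µM alone. With only these 2 groups in the fit, the count of lower genes was 5. Across untreated, 10 and 20 µM, DNAJB1 averaged 54.8 ± 12.3, 70.1 ± 17.6 and 306 ± 30.2 CPM, and HSPH1 averaged 135 ± 8.87, 142 ± 8.51 and 305 ± 27.8 CPM. HSPA8 averaged 1451 ± 105, 1719.6 ± 139 and 801 ± 83.2 CPM in the same order. Its log2 fold change at 20 against 10 µM was -1.10 ± 0.11 (adjusted p = 2.33e-06, edgeR). At this step the call of HSF1 was lost without replicate 2 at 10 µM (adjusted p = 0.159) and without replicate 1 (0.0756) or 2 (0.13) at 20 µM. The log2 fold changes at this step were 6.85 ± 0.22 for HSPA6, 4.13 ± 0.37 for HSPB8 and 2.72 ± 0.46 for DNAJB4. Comparisons that share the libraries at 20 µM are not independent of each other.

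**Figure D3:**
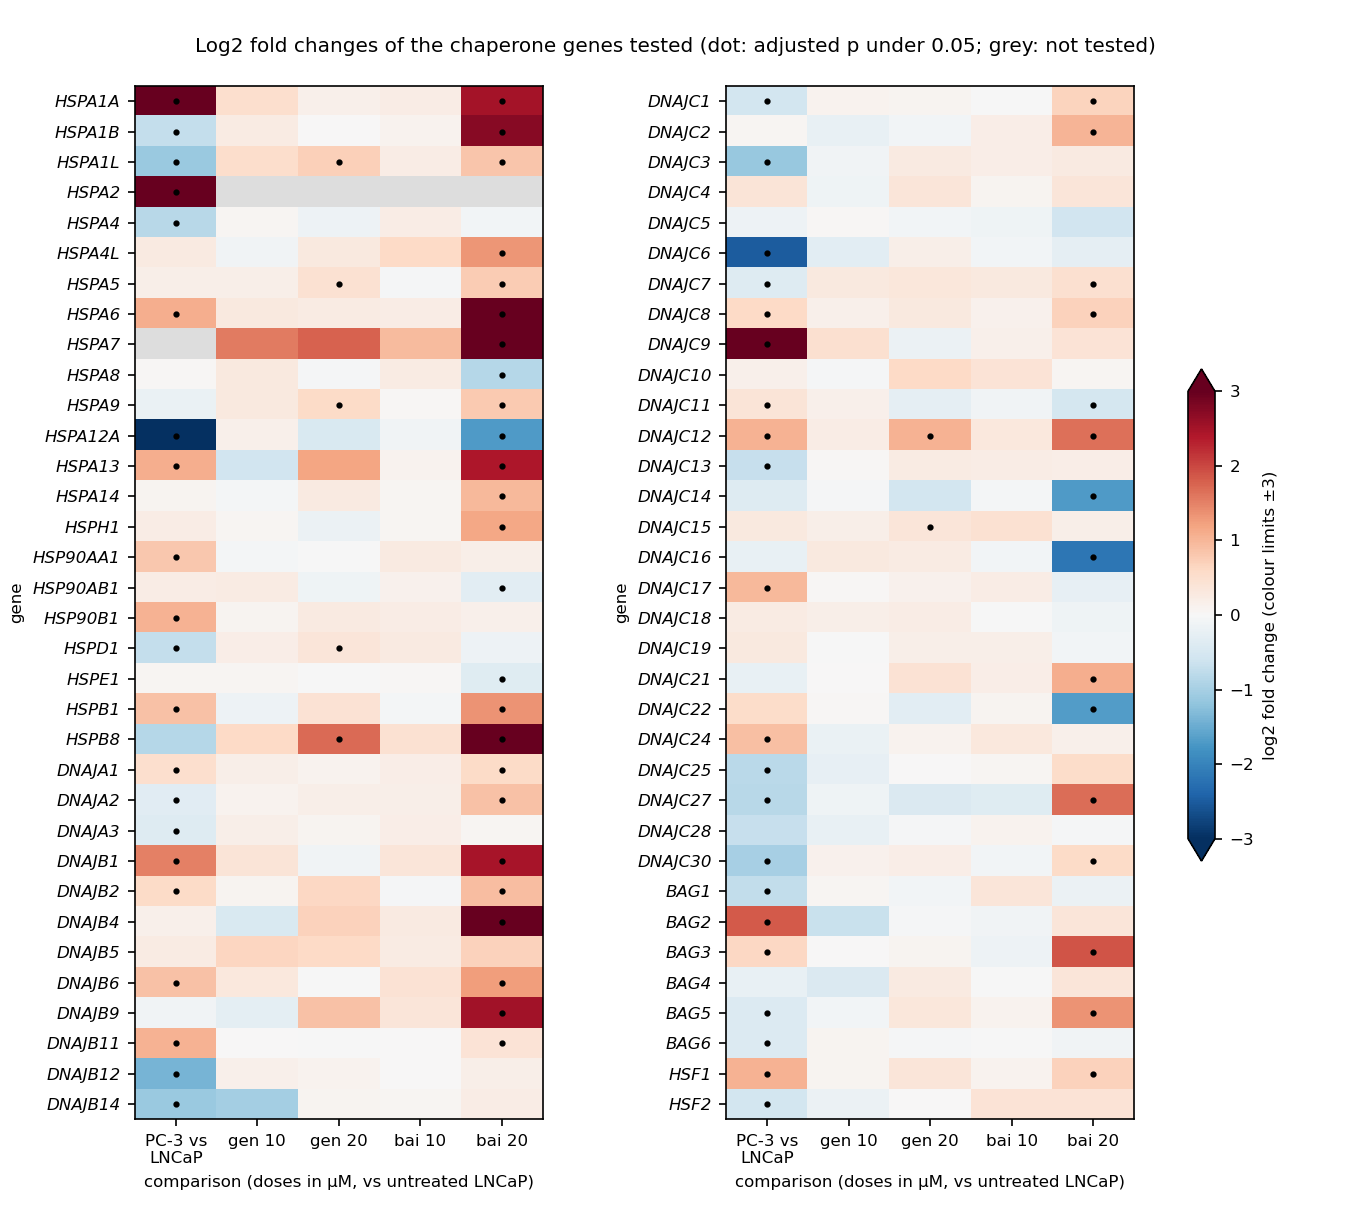
Log2 fold changes (colour) of the chaperone genes tested, in rows, for PC-3 over LNCaP and for each drug and dose over untreated LNCaP, in columns; a dot marks an adjusted p under 0.05 and grey a gene not tested. The column of baicalein at 20 µM carries 32 higher and 8 lower calls, that of genistein at 20 µM 7 and 0.

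Genistein at 20 µM changed few of these genes. Against untreated LNCaP, 7 of 67 chaperone genes were higher and 0 lower, beside 8.31% and 8.12% (together 16.4%) of all genes. The share called higher was 10.4%. The count of higher genes lay between 2 and 5 with any 1 library left out and was 13 with GC and length trends removed, where 3 were lower. The unadjusted p was under 0.05 for 18 higher and 2 lower genes, and DESeq2 called 7 and 3. The median log2 fold change was 0.17 in the chaperone genes, beside 0.05 over all genes tested. Of the genes listed as heat-inducible, 2 of 14 were higher and 0 lower (median 0.05). Of the mitochondrial chaperones 3 of 8 were higher, and of the DNAJB genes 0 of 9. With GC and length trends removed, DNAJB4 (0.57 ± 0.12, adjusted p = 0.00427) and DNAJB2 (0.69 ± 0.23, adjusted p = 0.0488) were called higher. This comparison and that of baicalein at 20 µM use the same 3 untreated libraries.

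DNAJC12 had 31.2, 29.6 and 36.3 CPM with genistein at 20 µM, against 17.4, 15.2 and 14.2 CPM untreated, a log2 fold change of 1.05 ± 0.14 (adjusted p = 0.000436, edgeR). All treated libraries were above all untreated ones, and DNAJC12 had the smallest adjusted p of the 7. HSPB8 had 2.86, 2.45 and 2.77 CPM with the drug, against 0.363, 1.04 and 1.09 CPM untreated (1.70 ± 0.37, adjusted p = 0.00834). HSPA9 had 630.3, 672 and 584 CPM with the drug, against 396, 488 and 379 CPM untreated (0.58 ± 0.13, adjusted p = 0.00983), and HSPD1 1553, 1710.0 and 1669 CPM with the drug, against 1224, 1344 and 1253 CPM untreated (0.37 ± 0.08, adjusted p = 0.00806). Without untreated replicate 3, HSPA9 and HSPD1 were no longer called (adjusted p = 0.0725 and 0.0616).

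The other 3 calls with genistein at 20 µM were lost when single libraries were left out. HSPA5 averaged 547 ± 29.5 CPM with the drug and 399.9 ± 47.4 CPM untreated (0.45 ± 0.13, adjusted p = 0.0285, edgeR). Leaving out any 1 of the 6 libraries ended the call, with adjusted p between 0.0501 and 0.122. HSPA1L averaged 8.5 ± 0.858 CPM with the drug and 5.17 ± 1.21 CPM untreated (0.72 ± 0.18, adjusted p = 0.0176), and 4 libraries, untreated replicates 1 and 3 and treated replicates 1 and 3, each ended it when left out (adjusted p from 0.0557 to 0.0916). DNAJC15, of the mitochondrial import motor, averaged 15 ± 1.05 CPM with the drug and 11.8 ± 0.335 CPM untreated (0.35 ± 0.11, adjusted p = 0.0367), and leaving out any 1 library ended it (adjusted p from 0.073 to 0.154). It was also not called by DESeq2 (adjusted p = 0.0635).

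HSPA6, DNAJB1, BAG3 and HSPA1B were not called with genistein at 20 µM. HSPA6 had 2.86, 3.67 and 2.44 CPM with the drug, against 2.18, 2.63 and 2.76 CPM untreated (log2 fold change 0.25, 95% interval -0.18 to 0.68). DNAJB1 had 73.1, 39.8 and 39.6 CPM with the drug, against 57.2, 65.7 and 41.4 CPM untreated (-0.11, interval -0.65 to 0.44), and BAG3 70.5, 66.8 and 66.7 CPM with the drug, against 62.2, 67.2 and 63 CPM untreated (0.08, interval -0.20 to 0.36). HSPA1B had 92.4, 88.5 and 94.3 CPM with the drug, against 89.1, 91.6 and 92.6 CPM untreated (0.01, interval -0.24 to 0.26). In each of these the libraries of the 2 groups overlapped. HSPA13 averaged 302 ± 106 CPM with genistein at 20 µM and 134 ± 31.7 CPM untreated and was not called (log2 fold change 1.17, adjusted p = 0.0766, edgeR). It was called when the fit held only the compared groups (adjusted p = 0.0388), by DESeq2 (0.0481) and with trends in GC content and length removed (0.000175).

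With genistein at 20 µM, 8.31% of all genes were called higher and 8.12% lower. Of the partner genes, 0 TRiC subunits were higher and 0 lower, and of the HSP90 co-chaperones 0 were higher and 1 lower. The lower one was FKBP5, which averaged 67.3 ± 3.15 CPM with genistein at 20 µM and 116 ± 1.09 CPM untreated (-0.79 ± 0.10, adjusted p = 0.000292, edgeR). HSPBAP1 averaged 26 ± 0.794 CPM with the drug and 18 ± 0.77 CPM untreated (0.53 ± 0.09), CRYAB 1.89 ± 0.0906 CPM with the drug and 0.988 ± 0.14 CPM untreated (0.93 ± 0.22), and CLPB 52.7 ± 4.15 CPM with the drug and 71.1 ± 2.25 CPM untreated (-0.43 ± 0.09). All 3 were called.

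Between 10 and 20 µM of genistein, 3 chaperone genes were higher at 20 µM and 1 lower, beside 5.59% and 7.63% (together 13.2%) of all genes. These counts were 8 and 7 with GC and length trends removed, 7 and 5 when only the compared groups entered, and 6 and 6 by DESeq2. HSPA8, not called in the main fit, averaged 1769 ± 101 CPM at 10 µM and 1414 ± 98 CPM at 20 µM. DESeq2 called it lower (log2 fold change -0.34, adjusted p = 0.00955), and HSP90AB1 as well (-0.40, adjusted p = 0.0182). Both were also called lower with the trends removed, without mitochondrial genes and with only the compared groups. DESeq2 called DNAJB9 and HSPB8 higher. DNAJC12 averaged 32.4 ± 3.48 CPM at 20 µM and 18.1 ± 0.703 CPM at 10 µM (0.84 ± 0.14, adjusted p = 0.00259, edgeR). The other 3 calls, HSPA13 (1.74 ± 0.43), HSPB1 (0.58 ± 0.15) and HSPA12A (-0.61 ± 0.16), were each lost when 1 of several libraries was left out. Their adjusted p then lay between 0.07 and 0.0812, between 0.0545 and 0.0979 and between 0.0563 and 0.101.

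The compounds are isomers. Baicalein belongs to the flavones and genistein to the isoflavones, whose phenyl ring is attached at another carbon of the core, and their hydroxyl groups also sit at different positions. They were compared at each matched dose over the 67 genes, with p-values adjusted over all 16985 genes. At 10 µM 0 chaperone genes were higher with genistein and 0 lower, beside 0.00589% and 0.00% of all genes. The unadjusted p was under 0.05 for 5 genes, and DESeq2 called 0. Differences beyond 2-fold either way fell outside the 95% interval for 51 of 67. For HSPA6 that interval was -0.37 to 0.51 on the log2 scale, for DNAJB1 -0.52 to 0.57, for BAG3 -0.11 to 0.45 and for HSPA8 -0.19 to 0.27.

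At 20 µM the compounds differed. With genistein, 8 chaperone genes were higher and 26 lower than with baicalein, beside 25.4% and 23.3% (together 48.7%) of all genes. The 26 include HSPA7, which passed the count filter through baicalein at 20 µM alone, so its call is no support. HSPA6 averaged 2.99 ± 0.625 CPM with genistein and 339.9 ± 60.3 CPM with baicalein, a log2 fold change of -6.82 ± 0.22 (adjusted p = 6.1e-10, edgeR). The values for other induced genes were -2.88 ± 0.33 for HSPB8, -2.72 ± 0.12 for HSPA1B, -2.59 ± 0.26 for DNAJB1, -2.29 ± 0.45 for DNAJB4 and -1.80 ± 0.13 for BAG3. None of these had overlapping libraries. DNAJC27 was lower with genistein (-2.12 ± 0.65), a call lost without replicate 1 of baicalein at 20 µM (adjusted p = 0.0625).

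Higher with genistein than with baicalein at 20 µM were HSPA8, which averaged 1414 ± 98 CPM with genistein and 801 ± 83.2 CPM with baicalein (0.82 ± 0.11, adjusted p = 4.12e-05, edgeR), and HSPD1, at 1644 ± 81.3 CPM with genistein and 1145 ± 25.8 CPM with baicalein (0.52 ± 0.08). So were HSPE1 (0.36 ± 0.09), HSPA12A (1.24 ± 0.17), DNAJC14 (1.14 ± 0.19), DNAJC16 (2.42 ± 0.47) and DNAJC22 (1.35 ± 0.24). HSPE1 was not called with only these 2 groups in the fit (adjusted p = 0.14). DNAJC17 (0.38 ± 0.15) was lost under 5 of the 6 omissions of 1 library (adjusted p from 0.0557 to 0.176). HSPA13 and HSPA4L, called lower with genistein, had overlapping libraries and were lost without replicate 1 of baicalein at 20 µM (adjusted p = 0.143 and 0.0936). Replicate 1 of genistein at 20 µM ended both as well (0.0931 and 0.0697), and so did replicate 2 (0.0663 and 0.0572).

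**Figure D4:**
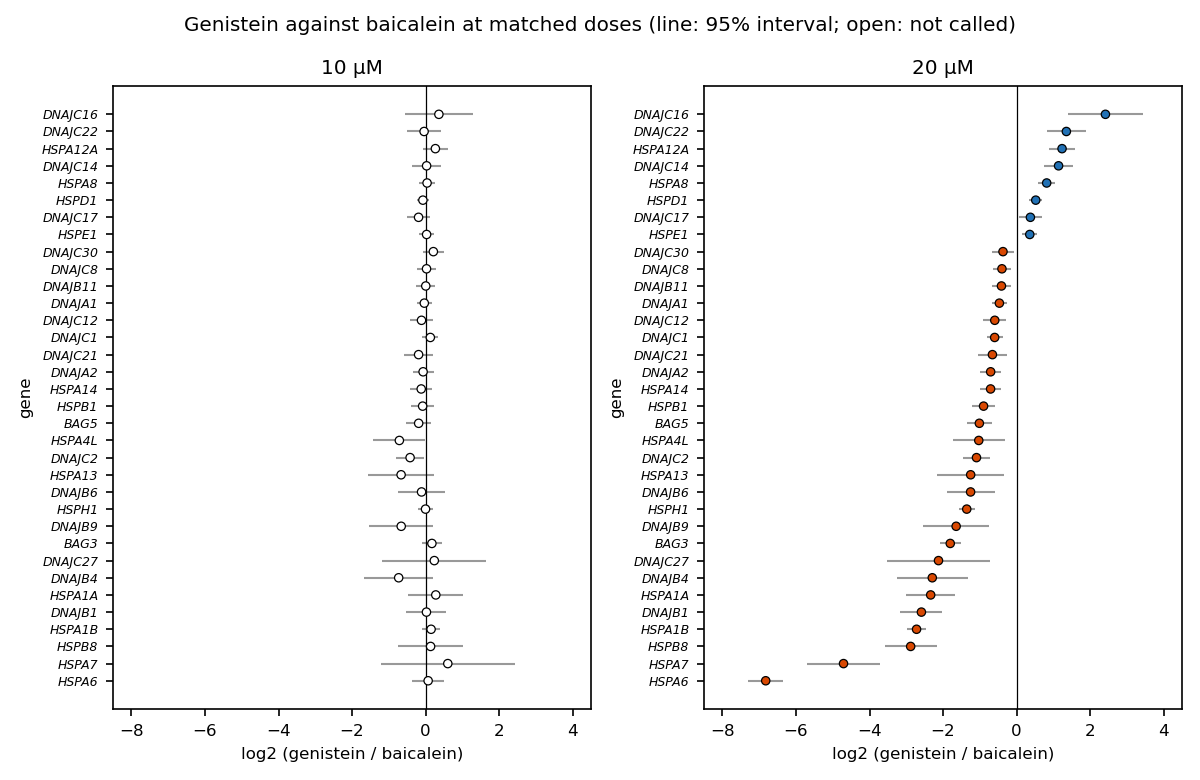
Log2 ratio of genistein over baicalein (horizontal axis) at 10 µM and at 20 µM for the 34 chaperone genes called at 20 µM, with 95% intervals as lines and open points for genes not called. At 20 µM HSPA6 lies at -6.82 and HSPA8 at 0.82, and at 10 µM all points are open. The 34 include HSPA7, which passed the count filter through baicalein at 20 µM alone.

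Untreated PC-3 and LNCaP cells differed in many chaperones. Of 67 genes tested, 21 were higher in PC-3 and 21 lower, beside 37.0% and 37.9% (together 74.9%) of all 17259 genes tested, so both shares, 31.3% each, were below the background. The median log2 fold change was 0.09 in the chaperone genes, beside -0.02 over all genes tested. HSPA2, a testis-enriched HSP70, had 142, 232 and 160 raw counts in PC-3, against 10, 9 and 3 in LNCaP. It passed the count filter through PC-3 alone, so no test is given for it, although it is among the genes counted as higher. HSP90AA1 had 1362, 1442 and 1284 CPM in PC-3, against 750.3, 829.7 and 749 CPM in LNCaP (0.81 ± 0.09, adjusted p = 0.000201), and HSP90B1 992, 1009 and 944 CPM in PC-3, against 461, 509.9 and 463 CPM in LNCaP (1.04 ± 0.09, adjusted p = 4.97e-05). The libraries of the 2 lines did not overlap for either HSP90 gene. TRiC subunits were higher in PC-3 in 5 of 8 and lower in 0.

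Of the genes listed as heat-inducible, 7 of 14 were higher in untreated PC-3 and 2 lower, beside 37.0% and 37.9% of all genes. HSPA1A is among the 7, but it passed the count filter of this fit through PC-3 alone, so its call is no support. Its near-identical copy HSPA1B was called lower. DNAJB1 had 154, 197 and 108 CPM in PC-3, against 55.2, 64.2 and 40.3 CPM in LNCaP (1.52 ± 0.26, adjusted p = 0.00164, edgeR). BAG3 had 89.1, 105 and 94.2 CPM in PC-3, against 60.1, 65.7 and 61.4 CPM in LNCaP (0.62 ± 0.10, adjusted p = 0.00128), and HSPB1 averaged 149.8 ± 14 CPM in PC-3 and 81.7 ± 9.09 CPM in LNCaP (0.87 ± 0.13). HSPA6 was low in both lines, at 4.42, 5.16 and 6.18 CPM in PC-3 and 2.11, 2.57 and 2.68 CPM in LNCaP (1.10 ± 0.20, adjusted p = 0.00208). HSF1 averaged 71 ± 8.46 CPM in PC-3 and 34.3 ± 5.37 CPM in LNCaP (1.05 ± 0.15), while HSF2 averaged 14.4 ± 2.59 CPM in PC-3 and 20.8 ± 1.26 CPM in LNCaP (-0.54 ± 0.16). Without LNCaP replicate 2 the HSF2 call was lost (adjusted p = 0.0518). HSPA13 averaged 276 ± 112 CPM in PC-3 and 130.2 ± 30.0 CPM in LNCaP, with overlapping libraries (1.08 ± 0.33), and was lost without LNCaP replicate 2 or 3 or PC-3 replicate 1 or 2 (adjusted p from 0.0574 to 0.0726).

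The listed levels of HSPA1A and HSPA1B went opposite ways between the lines. HSPA1A had 27.1, 28.7 and 68.2 CPM in PC-3, against 0.451, 0.717 and 0.839 CPM in LNCaP. Its raw counts were 239, 379 and 629 in PC-3, against 9, 12 and 15 in LNCaP. It passed the count filter of this fit only through PC-3, so no test is given for it, although it is among the genes counted as higher. HSPA1B had 49.5, 51.9 and 60.4 CPM in PC-3, against 86.1, 89.6 and 90.2 CPM in LNCaP (-0.72 ± 0.11, adjusted p = 0.000764, edgeR). The highest HSPA1A library was PC-3 replicate 3. Summed, the copies had 95.2 ± 28.9 CPM in PC-3 and 89.3 ± 2.39 CPM in LNCaP; the sums were 76.6, 80.6 and 129 in PC-3 and 86.6, 90.3 and 91 in LNCaP, which overlap. How reads of near-identical copies, or of their alleles in each line, were assigned was not given, and the split was not tested further.

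DNAJC9, a histone chaperone with a J domain, had 434, 464 and 274 CPM in PC-3, against 18.1, 40.3 and 19.2 CPM in LNCaP (3.92 ± 0.40, adjusted p = 0.00012, edgeR). Per kilobase it stood at place 9 among the chaperone genes in PC-3 and place 45 in LNCaP. Its exons overlap those of FAM149B1 on the opposite strand by 949 bases. BAG2, an inhibitor of the ubiquitin ligase STUB1, averaged 92.7 ± 20.5 CPM in PC-3 and 25.8 ± 7.43 CPM in LNCaP (1.84 ± 0.25), and 2842 of its 6651 exonic bases overlap RAB23 on the opposite strand. DNAJC12 averaged 31.4 ± 2.14 CPM in PC-3 and 15.2 ± 1.51 CPM in LNCaP (1.05 ± 0.12). All 3 were called higher in PC-3.

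Lower in PC-3 were HSPA12A, at 2.23 ± 0.81 CPM in PC-3, against 29.7 ± 5.7 CPM in LNCaP (-3.74 ± 0.27, adjusted p = 2.32e-05, edgeR), and DNAJC6, the auxilin that strips clathrin from vesicles, at 3.25 ± 0.33 CPM in PC-3, against 18.4 ± 2.39 CPM in LNCaP (-2.51 ± 0.17). DNAJB12, an ER membrane co-chaperone, was lower (-1.40 ± 0.11), as were DNAJC3 (-1.13 ± 0.22), DNAJC30 (-0.99 ± 0.10), HSPA1L (-1.12 ± 0.25) and HSPA4, an HSP110 (-0.83 ± 0.11). HSPD1 had 752, 756 and 761 CPM in PC-3, against 1182, 1314 and 1220.1 CPM in LNCaP (-0.71 ± 0.09), while its partner HSPE1 averaged 297 ± 53.5 CPM in PC-3 and 285 ± 10.7 CPM in LNCaP and was not called. DNAJB14 was called lower (-1.12 ± 0.39), but its adjusted p was 0.228 with trends in GC content and length removed. It also lost its call without LNCaP replicate 1 (0.0778) or 3 (0.102) and without PC-3 replicate 2 (0.0574).

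HSPA8 averaged 1444 ± 123 CPM in PC-3 and 1411 ± 110.3 CPM in LNCaP and was not called (95% interval of the log2 fold change -0.22 to 0.29). HSP90AB1 was first per kilobase in both lines, with 601 CPM per kb in PC-3 and 516 in LNCaP. The chaperone genes summed to 12036 ± 293 CPM in PC-3 and 10492 ± 496 CPM in LNCaP after TMM scaling. As a share of raw counts they took 1.09% ± 0.0116 in PC-3 and 1.16% ± 0.0718 in LNCaP (SD, n = 3 each), so the direction turned without that scaling.

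Of the 79 rows, 11 had too few counts to be tested in either fit. They were DNAJA4, DNAJB7, DNAJB8, DNAJB13, both rows named DNAJB3, HSPA12B, HSPB2, HSPB3, HSPB6 and HSPB7, and 5 of them had 0 counts in all 18 libraries. The largest count of any of the 11 in 1 library was 12, for DNAJA4. HSPA2 was tested between the lines only and HSPA7 among the LNCaP groups only. HSPA2 passed the count filter through PC-3 alone and HSPA7 through baicalein at 20 µM alone, so each could hardly do otherwise than differ there. Each is among the genes counted as higher in those groups. HSPA7 is also among the genes counted as lower with genistein than with baicalein at 20 µM.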

How the data were processed

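Poly(A) RNA of 18 libraries was measured in 6 groups of 3, set by the sample titles. The deposited table holds counts per gene that the authors made, with raw whole-number counts in 1 column per library. The tools named per the submitters' processing notes, without role or order, are DESeq2 1.20.0, featureCounts 1.6.4, STAR 2.7.6a and fastp, with the build GRCh38. The annotation release, the strand setting and the treatment of multimapping reads are not given in the sources used here. Its 18 FPKM columns and the authors' 13 comparisons were left aside.

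Counts were fitted with edgeR 4.0.16 (limma 3.58.1, R 4.3.3) by its quasi-likelihood test with robust estimates, after its default low-count filter and TMM scaling. The 15 LNCaP libraries entered 1 fit (16985 genes, 10 residual degrees of freedom) and the 6 untreated libraries another (17259 genes, 4), so an untreated LNCaP library has slightly different CPM in each. Benjamini-Hochberg adjustment ran over all genes of a fit, and a gene was called at an adjusted p under 0.05. Standard errors and 95% intervals come from the same fits. The procedure was first run on simulated data with few changed genes, in equal numbers up and down. With baicalein at 20 µM 57.2% of all genes were called, so that run does not vouch for the scaling there.

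Genes were named by rule: 25 fixed chaperones, the largest called changes without overlap of libraries at 5 CPM or more, and the 3 smallest adjusted p of each partner list. Members and lists were chosen with earlier results of these data known. GENCODE 29 matched 78 of the 79 chaperone rows and gave exon lengths, GC content and overlaps. Libraries of a group differed by more than counting noise, with chi-square per degree of freedom of 13.3 to 110. Replicate numbers were not used to pair libraries in the main fits. Correlations of the deviations of same-numbered libraries ran from -0.395 to 0.251, which cannot show whether libraries were paired. Alternatives were other scaling (RLE), no filter, only the compared groups, no mitochondrial genes, GC and length trends removed, a replicate block, single libraries left out, and DESeq2 1.42.0.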

Additional observations from a re-analysis of the deposited data

How the results depend on the processing

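The counts of chaperone genes called stayed within 1.5 times their values for baicalein at 20 µM against untreated, genistein against baicalein at 20 µM, PC-3 against LNCaP, genistein at 10 µM against untreated, and genistein against baicalein at 10 µM, under every alternative run. Other counts moved. For genistein at 20 µM against untreated, 13 genes were higher with GC and length trends removed and 11 with the replicate block added to that. Lower genes numbered 1 with RLE size factors, 3 with the trends removed, 3 with the block as well, 2 without mitochondrial genes and 3 by DESeq2. For baicalein at 10 µM against untreated, 2 were higher with the trends removed, 2 with the block as well and 2 by DESeq2. For 20 against 10 µM of baicalein, 5 were lower when the fit held only the compared groups. For 20 against 10 µM of genistein, 8 were higher with the trends removed, 7 with the block as well, 7 with only the compared groups and 6 by DESeq2. The lower genes of that step numbered 3 with RLE, 0 without a filter, 7 with the trends removed, 7 with the block as well, 4 without mitochondrial genes, 5 with only the compared groups and 6 by DESeq2. The cause was not tested.

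With single libraries left out, higher and lower calls ranged over 29 to 34 and 7 to 10 for baicalein at 20 µM, 2 to 5 and 0 to 1 for genistein at 20 µM, 26 to 31 and 10 to 13 for the baicalein step, 1 to 3 and 0 to 2 for the genistein step, 7 to 10 and 23 to 28 for genistein against baicalein at 20 µM, and 20 to 22 and 17 to 20 for PC-3. The comparisons of 10 µM stayed at 0. With the replicate number as a block, the counts were 31 and 8 for baicalein at 20 µM, 6 and 0 for genistein at 20 µM, 30 and 11 and 3 and 1 for the dose steps, 7 and 24 between the drugs at 20 µM, and 21 and 20 for PC-3. Of 3466 values of named genes under all alternatives, 3314 kept their call or lack of one. A call was lost in 95 and gained in 57, and 0 changed sign while called. Direction was not compared for genes called in neither fit. Restricting the fit to the compared groups was not run for PC-3, whose fit holds no others. Without a filter, or by DESeq2, the median of all genes between the lines shifted by -0.27 and -0.19 on the log2 scale. Depth limits the 11 genes with few counts, and 3 libraries per group limit all intervals.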
